A study of Mus musculus with 4 samples.

Results

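A set of 6 genes with well-known homes outside the thymus, Sprn, Cldn2, Gpr97, Mdga1, Cpa3 and Pdgfrb, were followed through the thymocytes of Rag1-deficient NOD and B6 mice. They are 6 of the 33114 named genes in each data file and 6 of the 12956 that reached an RPKM of 1 in any library. RPKM is the read number of a gene scaled to its length in kilobases and to the sequencing depth. The genes were selected on their RPKM in NOD week 6.5 against NOD week 4, for a strong rise with no stated threshold, so that rise is described below and supports nothing. On the log2(RPKM + 1) scale they ranked 1, 5, 6, 10, 16 and 27 of the 12565 genes compared between those libraries, and genes such as Dlk1 (rank 2), Itgb7 (rank 3) and Klf2 (rank 7) rose as much without being among them.

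Polyadenylated RNA was sequenced from flow-sorted thymocytes of 4 kinds of mice, all of them Rag1-/-: NOD at week 6.5, NOD at week 4, B6 (C57BL/6) at week 7 and B6 at week 4. NOD is an inbred strain prone to autoimmune diabetes, and the study concerns the early T-cell checkpoint and the start of leukaemia in its Rag1-deficient form. Each strain and age had 1 library, so no difference has a replicate check and no p-value is given. The sort markers, the sex of the mice and whether animals were pooled are not given in the labels. Intervals printed with read numbers and ratios are 95% exact intervals that cover counting error only.

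Without the Rag1 recombinase, thymocytes cannot rearrange their antigen receptor genes and stop at the CD4- CD8- double negative stage. A gene is called ectopic when it is transcribed outside the tissue it normally serves. Sprn (Shadoo, a small prion-like protein) and Mdga1 are known from the nervous system, and both proteins sit on the outer cell surface on a GPI lipid anchor. Cldn2 forms cation-conducting tight junction pores in leaky epithelia such as kidney tubule and gut crypt. Gpr97 is an adhesion G protein-coupled receptor known in humans from granulocytes, and Pdgfrb is the PDGF receptor tyrosine kinase of pericytes and other mesenchymal cells. Cpa3 is the carboxypeptidase stored in mast cell granules, and in mice it is also known from early blood and T-cell progenitors.

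The name "ectopic genes rising at NOD week 6.5" held for only some of these genes. Sprn, Cldn2 and Mdga1 stayed under an RPKM of 1 in both B6 libraries and in NOD week 4, and exceeded it only in NOD week 6.5. The other 3, Gpr97, Cpa3 and Pdgfrb, were above an RPKM of 1 in all 4 libraries, B6 included. NOD week 6.5 held the highest level of 5 genes, while Pdgfrb was highest in B6 week 4. Cldn2, Cpa3 and Pdgfrb had their lowest level in NOD week 4. For Cpa3 and Pdgfrb it was apart beyond counting error, so there the NOD age comparison starts from the bottom of the range. For Cldn2 it was not, with B6 week 7 at 1.17 times NOD week 4 (0.619 to 2.20).

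**Figure D1:**
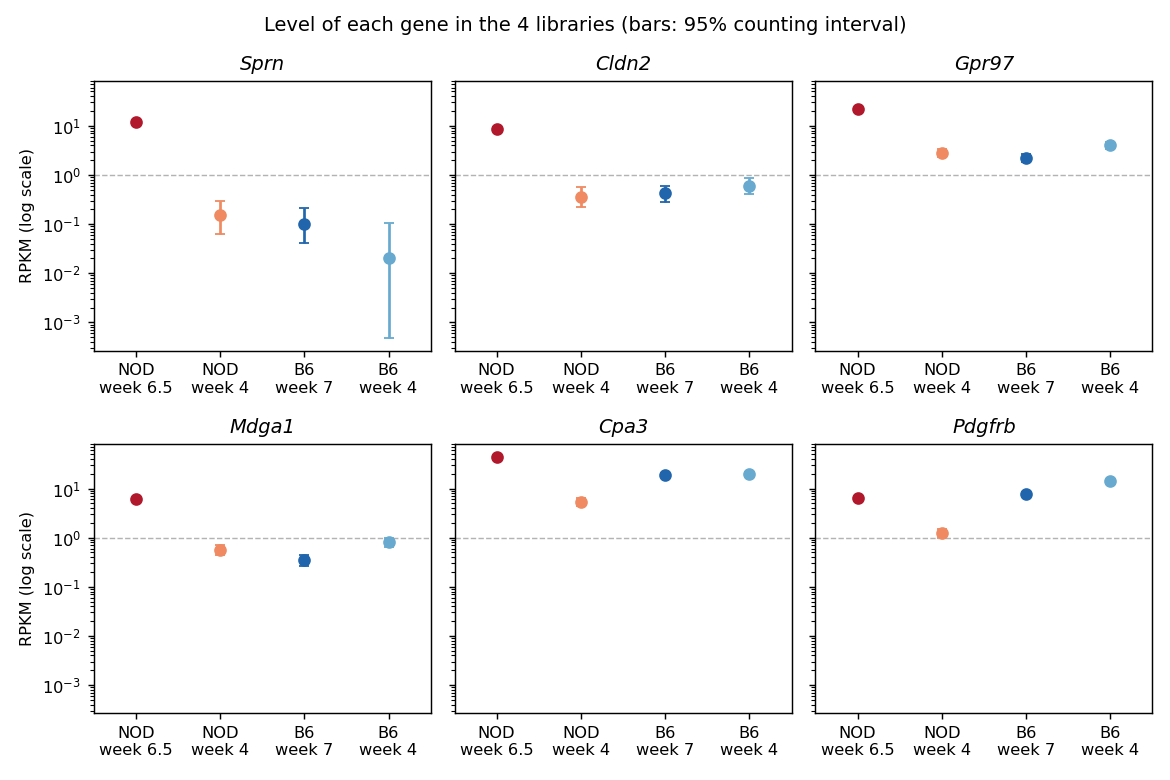
RPKM of each of the 6 genes (log scale) in the 4 libraries, 1 library per strain and age, with bars for the 95% counting interval and a dashed line at an RPKM of 1. Sprn, Cldn2 and Mdga1 lie above the line only in NOD week 6.5, whereas Pdgfrb at 6.33 in NOD week 6.5 lies below its B6 values of 7.89 and 14.25.

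Recovered depth was 24090000 reads for NOD week 6.5, 17260000 for NOD week 4, 21220000 for B6 week 7 and 17040000 for B6 week 4, and 52.6% to 67% of them fell in the listed rows. Thymocyte genes were high in every library, with Il2ra, a double negative marker, at 422 to 531 RPKM and the pre-T-cell receptor chain Ptcra at 173 to 318 RPKM. Rag1 RNA itself stood at 91.7 to 133 RPKM, but the labels do not say which segment of the gene is deleted, so reads from it check nothing. The NOD week 6.5 file stands apart in its read sharing: only 0.204% of genes with RPKM of 5 or more had no read placed at several positions, against 58.8%, 56.6% and 59.0% in NOD week 4, B6 week 7 and B6 week 4. The 6 genes had 2% to 3% of such reads in NOD week 6.5 and 0% in the other libraries, and taking those reads out moved none of their ratios beyond counting error. Xist RNA, made by the silenced X of female cells, had 77.9 RPKM in NOD week 6.5, 20.2 in NOD week 4, 120 in B6 week 7 and 100 in B6 week 4. The Y-linked gene Ddx3y was at 6.42, 16.6, 9.85 and 5.20 RPKM in that order, so each library held reads listed under both genes, in unequal shares. The sex of the mice was not tested.

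Among the GPI-anchored proteins, Sprn showed the widest contrast. It had 12.03 RPKM (915 reads) in NOD week 6.5, against 0.15 RPKM (8 reads) in NOD week 4, 0.10 RPKM (7 reads) in B6 week 7 and 0.02 RPKM (1 read) in B6 week 4. The other 3 libraries thus held a handful of reads each, and the single read of B6 week 4 lies under the floor of 3 reads used here. NOD week 6.5 was 80.2 times NOD week 4 (41.4 to 190) and 120 times B6 week 7 (55.7 to 287). NOD week 4 against B6 week 7 was 1.5 (0.445 to 4.55), and B6 week 7 against B6 week 4 was 5.0 (0.722 to 253), so these neighbours in the order of levels were not apart beyond counting error. NOD week 4 against B6 week 4 was 7.5 (1.06 to 350), a ratio of 8 reads to 1. In NOD week 6.5 the Sprn level was at or above that of 84.7% of all named genes.

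Sprn (Entrez 212518, chromosome 7, gene model of 3.156 kilobases) is shown with the 250 bases upstream of its start, because it ranked 1 of 12565 genes between the NOD ages on log2(RPKM + 1), a scale that ranks low genes down. The sequence is from RefSeq, build GRCm38.p6, chr7:140154660-140154909, minus strand, written 5′ to 3′. No capitals appear, since none of the 4 motifs searched on both strands occurs in it: the E-box CANNTG, the GATA motif AGATAA, the Runx motif TGTGGT and the TATA motif TATAAA.
Sprn: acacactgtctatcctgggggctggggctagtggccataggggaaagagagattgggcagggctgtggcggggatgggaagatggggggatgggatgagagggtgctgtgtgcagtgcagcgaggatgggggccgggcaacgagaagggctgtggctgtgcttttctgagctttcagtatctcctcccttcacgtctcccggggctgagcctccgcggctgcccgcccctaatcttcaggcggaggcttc
Its GC content was 63.2% with 10 CpG, against a median of 52.0% and 6 CpG over 27025 mouse promoters of the same length. The 3′ end of Sprn overlaps Mtg1 on the opposite strand, and the libraries were made without a stated strand-specific step, which leaves reads of that overlap ambiguous. Mtg1, a mitochondrial GTPase gene, had 9.88 RPKM in NOD week 6.5, 11.5 in NOD week 4, 6.60 in B6 week 7 and 7.48 in B6 week 4, a NOD age ratio of 0.861 (0.728 to 1.02).

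None of the other listed prion protein family genes and partners was 2-fold higher between the NOD ages. Prnp, the cellular prion protein, was at 14.3 RPKM in NOD week 6.5 and 16.02 in NOD week 4, and at 10.1 in B6 week 7 and 11.2 in B6 week 4. Prnd, the testis-expressed family member Doppel, was at 0.02 RPKM in NOD week 6.5 and listed at 0 in the other libraries. Of the 9 listed genes measured beside Sprn, 4 passed the filter of RPKM 1 in either NOD library and 0 of them were 2-fold higher or lower. Of the 23 listed genes of GPI anchor attachment, the machinery that Sprn and Mdga1 both need, 21 passed and 0 differed 2-fold, with a median log2 ratio of -0.10 against -0.05 over all genes compared.

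Mdga1, the second GPI-anchored gene, encodes an immunoglobulin-superfamily protein that binds neuroligins. Its level was 6.12 RPKM (1115 reads) in NOD week 6.5, against 0.56 (73 reads) in NOD week 4, 0.35 (56 reads) in B6 week 7 and 0.81 (104 reads) in B6 week 4. NOD week 6.5 stood far above the rest, and the 3 lower libraries were also apart from each other beyond counting error, with B6 week 7 at the bottom. The ratio of NOD week 6.5 was 10.9 to NOD week 4 (8.63 to 14.1) and 17.5 to B6 week 7 (13.4 to 23.4). At the younger age NOD week 4 was 0.691 times B6 week 4 (0.507 to 0.944), and between B6 ages the ratio of week 7 to week 4 was 0.432 (0.307 to 0.604). Mdga1 lies on chromosome 17 with a long gene model of 7.566 kilobases, and its upstream 250 bases had the highest GC content of the 5 promoters read, 70.4% with 21 CpG. The promoter of Pdgfrb was not among those read.

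Partners of Mdga1 were scarce in these thymocytes. Its paralog Mdga2, named Mamdc1 in the files, was listed at 0 in all 4 libraries. Nlgn2, the neuroligin that Mdga1 binds at inhibitory synapses, had 4.03 RPKM in NOD week 6.5, 3.37 in NOD week 4, 2.05 in B6 week 7 and 3.35 in B6 week 4. Of the 7 listed MDGA, neuroligin and neurexin genes beside Mdga1, 1 passed the filter and 0 differed 2-fold between the NOD ages.

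Cldn2, the tight junction gene on the X chromosome, was nearly off except in NOD week 6.5. It had 8.74 RPKM (640 reads) there, against 0.36 (19 reads) in NOD week 4, 0.42 (27 reads) in B6 week 7 and 0.60 (31 reads) in B6 week 4. The 3 low libraries were not apart from their neighbours in the order beyond counting error. NOD week 6.5 was 24.3 times NOD week 4 (15.3 to 40.4), 20.8 times B6 week 7 (14.2 to 31.9) and 14.6 times the next highest library, B6 week 4 (10.2 to 21.7). Xist also differed between the NOD ages, as given above. Both B6 libraries had more Xist than NOD week 6.5 and Cldn2 under 1 RPKM, but they also differ from it in strain. The part of the sex of the mice in the Cldn2 values was not tested.

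Upstream sequences of Cldn2 and Cpa3 are shown together because they carry the same short words in the same order near the start. Both are RefSeq sequences of build GRCm38.p6, 5′ to 3′: Cldn2 from chrX:139800558-139800807 on the plus strand and Cpa3 from chr3:20242182-20242431 on the minus strand. Capitals mark every match to the 4 motifs on either strand.
Cldn2: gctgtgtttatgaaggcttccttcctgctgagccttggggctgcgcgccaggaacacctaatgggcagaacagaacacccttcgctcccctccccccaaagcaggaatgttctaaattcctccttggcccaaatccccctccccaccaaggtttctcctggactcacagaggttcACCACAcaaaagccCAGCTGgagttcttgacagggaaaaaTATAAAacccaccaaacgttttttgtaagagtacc
Cpa3: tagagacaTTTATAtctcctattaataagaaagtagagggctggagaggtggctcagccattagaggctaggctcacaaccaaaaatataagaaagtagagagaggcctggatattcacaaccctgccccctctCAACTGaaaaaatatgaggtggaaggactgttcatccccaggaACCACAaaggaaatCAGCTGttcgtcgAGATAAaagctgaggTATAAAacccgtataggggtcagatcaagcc
In Cldn2 the Runx word, written ACCACA on this strand, begins 75 bases before the start. An E-box spelled CAGCTG begins 61 bases before it, and the TATA word 35 bases before it. In Cpa3 the same words begin 73, 59 and 31 bases before the start, so the Runx word and this E-box are 8 bases apart in both genes. This arrangement was noticed after the letters had been seen. The Runx word and this E-box at that spacing, searched on either strand, occur in 3 of 27025 promoters (0.0111%), those of Cldn2, Cpa3 and Gm39523. All 3 words in this order at any spacing occur in 8 promoters (0.0296%). A match describes the letters and is neither a binding site nor a cause of the RNA levels.

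Single motifs were common and not shared by all the promoters read, which leave out that of Pdgfrb. The E-box occurs in 66.0% of mouse promoters and in 3 of the 5 read here, those of Cldn2, Gpr97 and Cpa3. The Runx word occurs in 14.2% of promoters and TATAAA in 13.0%, each in Cldn2 and Cpa3. AGATAA occurs in 10.3% of promoters and in Cpa3 alone of the 5. The upstream bases of Gpr97 had 55.2% GC with 7 CpG, those of Cldn2 52.0% with 4 CpG and those of Cpa3 44.4% with 3 CpG.

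Most other tight junction genes were near 0. Of the 29 listed claudin and tight junction genes beside Cldn2, 25 were under an RPKM of 1 in NOD week 6.5, 14 of them listed at 0. The 4 that passed the filter included Cldn4, an epithelial claudin, at 10.2 RPKM in NOD week 6.5, 14.5 in NOD week 4, 7.29 in B6 week 7 and 17.4 in B6 week 4. None of these 4 differed 2-fold between the NOD ages. Kidney and gut epithelium markers did not accompany Cldn2 either: all 19 measured were under an RPKM of 1, with a summed level of 0.95 RPKM in NOD week 6.5, 0.94 in NOD week 4, 0.60 in B6 week 7 and 1.15 in B6 week 4. The proximal tubule genes Slc34a1 and Lrp2 were listed at 0 in NOD week 6.5, as was Lgr5, a marker of crypt stem cells. Of 17 thymic epithelium markers, Foxn1 and Krt14 were listed at 0 there, and the summed level was 48.3 RPKM in NOD week 6.5 and 69.8 in NOD week 4, against 54.6 in B6 week 7 and 85.5 in B6 week 4. Most of that sum came from Cdh1, Epcam (named Tacstd1 in the files) and Cldn4.

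Gpr97, now called Adgrg3, was the receptor with a low level everywhere and a high one in NOD week 6.5. It had 21.6 RPKM (1247 reads) in NOD week 6.5, against 2.80 (116 reads) in NOD week 4, 2.22 (113 reads) in B6 week 7 and 3.98 (163 reads) in B6 week 4. The order of the lower libraries was B6 week 4, NOD week 4 and B6 week 7, of which the last pair was not apart beyond counting error. NOD week 6.5 was 7.71 times NOD week 4 (6.36 to 9.40) and 9.73 times B6 week 7 (8.01 to 11.9). In B6 the ratio of week 7 to week 4 was 0.558 (0.434 to 0.712), and NOD week 4 was 0.704 times B6 week 4 (0.549 to 0.897).

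Gpr97 lies on chromosome 8 beside another adhesion receptor gene, and their NOD age ratios were unequal. Its neighbour Gpr56 (Adgrg1), in humans a receptor of cytotoxic lymphocytes, had 187 RPKM in NOD week 6.5, 167 in NOD week 4, 74.9 in B6 week 7 and 153 in B6 week 4, a NOD age ratio of 1.12 (1.09 to 1.15). Of 29 listed adhesion receptor genes beside Gpr97, 7 passed the filter and 0 differed 2-fold between the NOD ages. Cd97, a leukocyte receptor of this family, was at 13.8 RPKM in NOD week 6.5 and 7.11 in NOD week 4, and at 0.86 in B6 week 7 and 1.47 in B6 week 4. The summed level of granulocyte and monocyte markers did not follow Gpr97, but 1 gene made up most of it. It was 24.5 RPKM in NOD week 6.5, 29.0 in NOD week 4, 23.4 in B6 week 7 and 31.4 in B6 week 4. Of the 23 markers, 21 were under an RPKM of 1 in NOD week 6.5, with S100a9 and Mmp9, both made by neutrophils, listed at 0. Most of the sum was lysozyme (Lyzs in the files), at 21.4 RPKM in NOD week 6.5 and 25.8 in NOD week 4. Ctsg, the other marker that passed the filter, was at 1.16 RPKM in NOD week 6.5 and 0.35 in NOD week 4. In B6 it was at 0.66 at week 7 and 0.53 at week 4, so it was highest in NOD week 6.5, as Gpr97 was. Neither marker differed 2-fold on RPKM + 1, and the part of granulocytes in the Gpr97 values was not tested.

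Pdgfrb, the other receptor, ran differently from the rest. It had 6.33 RPKM (779 reads) in NOD week 6.5 and 1.22 (108 reads) in NOD week 4, against 7.89 (856 reads) in B6 week 7 and 14.2 (1241 reads) in B6 week 4. All 4 libraries were apart beyond counting error, with B6 week 4 highest and NOD week 4 lowest. NOD week 6.5 was 5.19 times NOD week 4 (4.22 to 6.38), but 0.802 times B6 week 7 (0.727 to 0.884) and 0.444 times B6 week 4. NOD week 4 was 0.0856 times B6 week 4 (0.0699 to 0.105), which placed Pdgfrb at rank 12617 of 12640 genes in that comparison. In B6 the ratio of week 7 to week 4 was 0.554 (0.507 to 0.605).

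Most pericyte and fibroblast genes were nearly silent beside Pdgfrb. Of 24 markers of these cells, 21 were under an RPKM of 1 in NOD week 6.5. Pdgfra, Rgs5, Cspg4 and Des, which define fibroblasts, pericytes and muscle-like mural cells, were listed at 0 there, and the collagen gene Col1a1 was at 0.01 RPKM. The summed level was 195 RPKM in NOD week 6.5 and 208 in NOD week 4, against 107 in B6 week 7 and 177 in B6 week 4, nearly all of it from Notch3 and Vim. Notch3, a receptor that double negative thymocytes also express, was at 127 RPKM in NOD week 6.5 and 174 in NOD week 4. Vim, an intermediate filament gene of many cell types, was the 1 marker that was 2-fold higher, with 63.5 RPKM in NOD week 6.5 and 29.9 in NOD week 4. In bulk RNA, fewer cells of a type and less RNA per cell cannot be told apart.

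The ligands of PDGF receptors were unevenly present. Pdgfa had 25.1 RPKM in NOD week 6.5 and 27.9 in NOD week 4, and 3.74 in B6 week 7 and 13.9 in B6 week 4, while Pdgfb, which binds Pdgfrb most strongly, was listed at 0, then 0.04, 0.02 and 0.02 RPKM in that order. Of the 9 listed ligands and related receptors, 2 passed the filter between the NOD ages and 1 was 2-fold higher. That gene was Kit, the stem cell factor receptor, at 19.4 RPKM in NOD week 6.5, 6.33 in NOD week 4, 4.25 in B6 week 7 and 7.62 in B6 week 4. Of 20 listed genes that carry the signal inside the cell, 18 passed and 0 differed 2-fold, with a median log2 ratio of 0.00242.

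Cpa3, the protease, had the highest level of the 6 genes in every library. It stood at 43.6 RPKM (1515 reads) in NOD week 6.5 and 5.34 (133 reads) in NOD week 4, against 18.9 (578 reads) in B6 week 7 and 19.4 (478 reads) in B6 week 4. The B6 libraries were not apart beyond counting error and lay between the NOD ages. NOD week 6.5 was 8.17 times NOD week 4 (6.83 to 9.82) but 2.31 times B6 week 7 (2.10 to 2.55), and NOD week 4 was 0.275 times B6 week 4 (0.225 to 0.334). B6 week 7 was 0.972 times B6 week 4 (0.859 to 1.10).

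Most mast cell genes were at or near 0 beside Cpa3. Ms4a2, a chain of the IgE receptor, and the granule proteases Cma1, Mcpt4, Mcpt6 and Tpsab1 were listed at 0 in NOD week 6.5, and Fcer1a was at 0.04 RPKM. Of the 20 mast cell markers measured, 18 were under an RPKM of 1 and 10 of those were listed at 0, and the summed level was 4.41 RPKM in NOD week 6.5, 2.72 in NOD week 4, 3.83 in B6 week 7 and 4.04 in B6 week 4. That sum was highest in NOD week 6.5 and lowest in NOD week 4, as Cpa3 was, but its top place in NOD week 6.5 rests on Fcer1g. Its largest parts were Fcer1g, which had that order, and Slc18a2, which did not. Slc18a2 was at 1.05 RPKM in NOD week 6.5, 1.12 in NOD week 4, 1.24 in B6 week 7 and 1.06 in B6 week 4. Neither of the 2 markers that passed the filter was 2-fold higher on RPKM + 1, but Fcer1g, an Fc receptor chain shared by several blood cell types, was at 2.28 RPKM in NOD week 6.5 and 0.88 in NOD week 4 and passed 2-fold with a pseudocount of 0.5 or 0.1. The part of mast cells in the Cpa3 values was not tested. Of 18 other listed genes, metallocarboxypeptidases and their inhibitor Lxn, 3 passed and 0 differed 2-fold, and the pancreatic enzyme gene Cpa1 was listed at 0 in all 4 libraries.

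**Figure D2:**
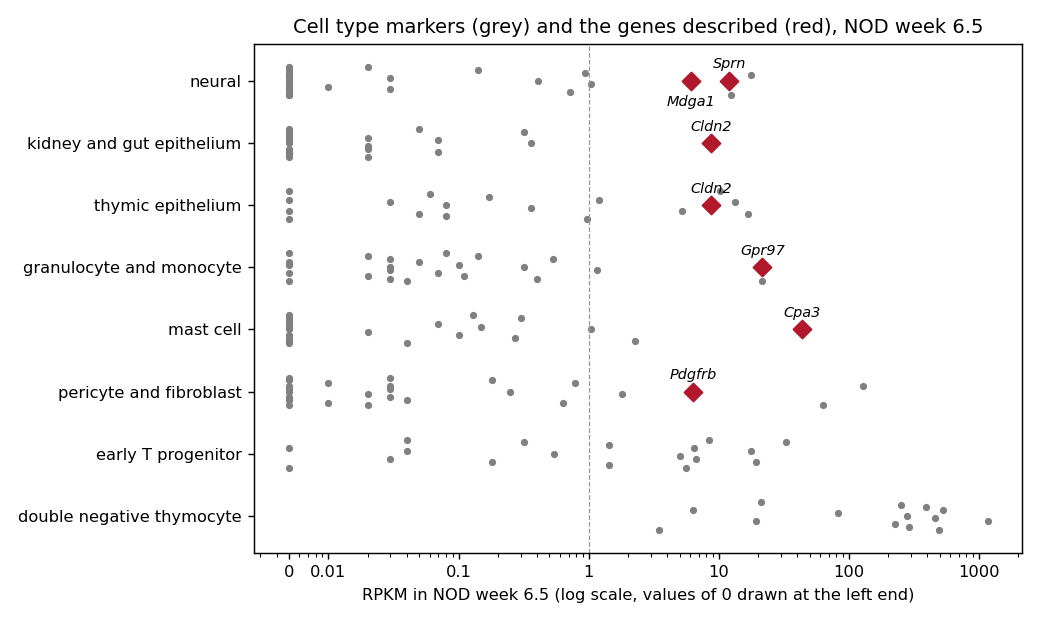
RPKM in NOD week 6.5 (log scale, values of 0 at the left end) of the markers of 8 cell types (grey points) and of the genes described (red diamonds) beside the cell type each is known from. Most mast cell, kidney and gut, pericyte and neural markers lie under the dashed line at an RPKM of 1, where Cpa3 is at 43.6 and Cldn2 at 8.74.

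Some genes of early T progenitors were also higher in NOD week 6.5, and haemoglobin genes were lower. Of 18 progenitor genes listed, 10 passed the filter between the NOD ages, 6 were 2-fold higher and 0 lower, with a median log2 ratio of 1.45 against -0.05 over all genes compared. Of all 12565 genes compared, 0.716% were 2-fold higher and 0.127% lower. The lists were chosen with earlier results of these data known, so their counts are a description. The higher progenitor genes included Lyl1, Lmo2 and Hhex, transcriptional regulators of blood progenitors. Bcl11a, at 1.44 RPKM in NOD week 6.5 and 2.30 in NOD week 4, and Mycn, at 6.68 and 8.38, did not share this. The other 8 listed genes were under an RPKM of 1 in every library, among them the progenitor surface markers Flt3, at 0.03 RPKM in NOD week 6.5, and Cd34, at 0.32. Lmo2 had 5.0 RPKM in NOD week 6.5, 0.44 in NOD week 4, 0.11 in B6 week 7 and 0.31 in B6 week 4. The summed level of the list was 106 RPKM in NOD week 6.5, 46.7 in NOD week 4, 50.7 in B6 week 7 and 67.05 in B6 week 4. Of 14 double negative thymocyte genes all passed and 2 were 2-fold higher, Cd2 and Cd7, with a median of -0.21. Of 11 erythroid and megakaryocyte genes 3 passed, 0 were higher and 2 were 2-fold lower, and the summed level was 8.64 RPKM in NOD week 6.5, 47.6 in NOD week 4, 15.2 in B6 week 7 and 46.6 in B6 week 4. The lower ones were the haemoglobin genes Hba-a1, at 4.12 RPKM in NOD week 6.5 and 29.6 in NOD week 4, and Hbb-b1, at 1.72 and 13.4. Of 12 endothelial, 8 B cell and 9 plasmacytoid dendritic cell genes, 1, 2 and 5 passed and 0 differed 2-fold. Neural markers, which include genes of the tissue that Sprn and Mdga1 are known from, were under an RPKM of 1 in 21 of 24 cases in NOD week 6.5, with Snap25, Syt1 and Gad1 listed at 0. Their summed level was 33.4 RPKM in NOD week 6.5, 38.5 in NOD week 4, 38.2 in B6 week 7 and 56.1 in B6 week 4. Most of it came from Mbp and Tubb3, and in B6 also from Camk2a. Camk2a was at 16.1 RPKM in B6 week 7 and 19.98 in B6 week 4. In NOD it was at 1.04 at week 6.5 and 0.95 at week 4. The part that a changed mix of cells had in the 6 genes was not tested.

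Set against all genes, a 2-fold change between the NOD ages was rare. On RPKM + 1, 0.716% of 12565 genes were 2-fold higher in NOD week 6.5 than in NOD week 4 and 0.127% were 2-fold lower. All 6 genes are among the higher ones because they were selected there. NOD week 6.5 was 2-fold above the highest of the other 3 libraries for 0.324% of 12956 genes and for 5 of the 6, a measure that holds the same contrast as the selection. Pdgfrb was the gene left out, at rank 8666 of 8817 genes with under 10% shared reads, while Sprn was rank 1, Cldn2 rank 5, Gpr97 rank 10, Mdga1 rank 13 and Cpa3 rank 28.

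The B6 libraries were not used in the selection and show whether age went the same way in that strain. Between B6 week 7 and B6 week 4, 3 of the 6 genes passed the filter and 0 were 2-fold higher or lower, beside 0.219% of 12355 genes that were higher and 3.02% that were lower. The median log2 ratio of all genes in that comparison was -0.30, so lower values were common. Against it, Gpr97 at -0.63 and Pdgfrb at -0.78 lay below the median and Cpa3 at -0.04 above it. The difference between the age changes, NOD minus B6 on log2(RPKM + 1), was 3.39 for Sprn, 3.20 for Gpr97, 3.01 for Cldn2, 2.85 for Cpa3, 2.61 for Mdga1 and 2.50 for Pdgfrb. With a pseudocount of 0.1, tried after the data had been seen, Cldn2 was at 4.69, Mdga1 at 4.25 and Gpr97 at 3.72, in another order. With 1 library per strain and age the difference was not tested, and its NOD side is fixed by the selection.

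**Figure D3:**
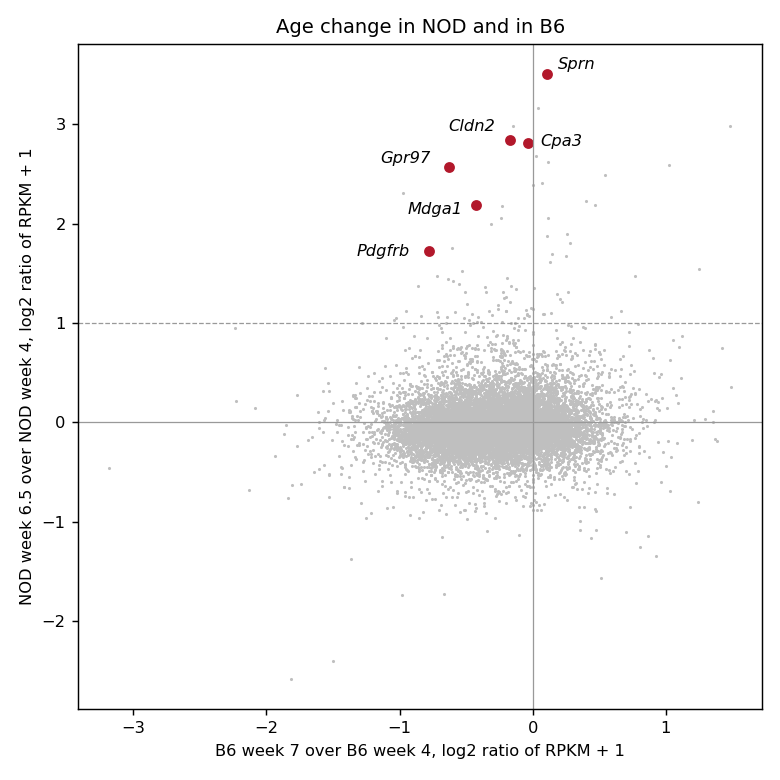
Age change of every gene that reached an RPKM of 1 in a library compared, as log2 ratios of RPKM + 1, in B6 (week 7 over week 4, horizontal) and NOD (week 6.5 over week 4, vertical), with the 6 genes in red. The 6 genes lie between 1.72 and 3.502 in NOD, where they were selected, and between -0.78 and 0.11 in B6.

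Between strains at the older age, NOD week 6.5 against B6 week 7, all 6 genes passed the filter and 5 were 2-fold higher, beside 5.63% of 12643 genes that were higher and 1.68% that were lower. That comparison shares the NOD week 6.5 library with the selection. Cpa3 lost its 2-fold call when the libraries were rescaled by TMM, where its ratio was 1.90. Between strains at the younger age, which shares the NOD week 4 library with the selection, 3 passed, 0 were higher and 2 were lower, Cpa3 and Pdgfrb, beside 2.58% of 12640 genes that were higher and 2.16% that were lower. The low NOD week 4 level that helped select these genes is the same value used here, so the 2 lower calls are a description.

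**Figure D4:**
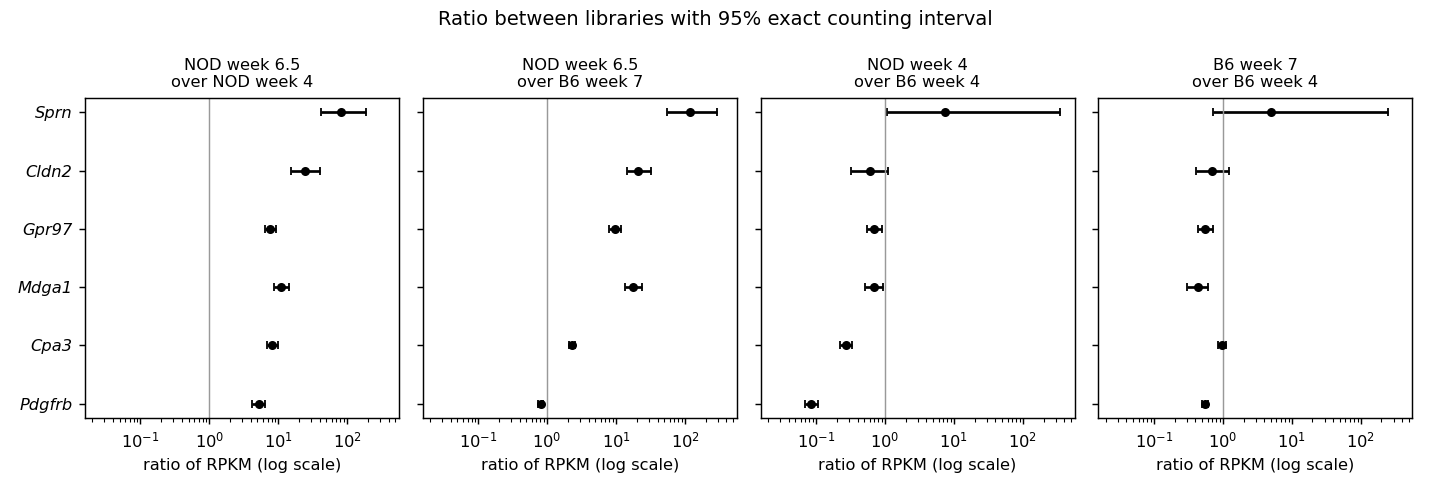
Ratio of RPKM between 2 libraries (log scale) for each of the 6 genes in the 4 comparisons, with 95% exact counting intervals and a line at 1. Pdgfrb is at 5.19 between the NOD ages but at 0.802 between NOD week 6.5 and B6 week 7, and the wide intervals of Sprn in the right-hand panels rest on 1 read in B6 week 4.

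The genes with the most similar profiles were found by the Euclidean distance of log2(RPKM + 1) over the 4 libraries, among 8817 genes, as a description. Nearest to Sprn was Dlk1 (distance 0.271), a Notch-related surface protein, at 10.2 RPKM in NOD week 6.5, 0.25 in NOD week 4, 0.03 in B6 week 7 and 0 in B6 week 4, followed by Slc7a8 (0.794) and Gzmb (0.936). Gzmb, the cytotoxic granule protease granzyme B, was nearest to both Cldn2 (0.275) and Mdga1 (0.514), at 7.67 RPKM in NOD week 6.5, 0.41 in NOD week 4, 0.53 in B6 week 7 and 0.41 in B6 week 4. Cldn2 was next nearest to Klf2 (0.70) and Slc7a8 (0.786), and Mdga1 to Lmo2 (0.610) and Hhex (0.650). Gpr97 was nearest to the thrombin receptor gene F2r (0.458), then to Bpil2 (0.891) and Itgb7 (1.14).

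Cpa3 and Pdgfrb had less close company. Scin, an actin-severing protein, was nearest to Cpa3 at a distance of 1.18, with 49.2 RPKM in NOD week 6.5, 10.04 in NOD week 4, 33.7 in B6 week 7 and 24.1 in B6 week 4. Nfe2 (1.21) and Emp3 (1.36) followed. Pdgfrb was nearest to Tsix (0.941), at 6.84 RPKM in NOD week 6.5, 2.39 in NOD week 4, 11.3 in B6 week 7 and 9.54 in B6 week 4. Tsix is the antisense partner of Xist, and without strand its reads cannot be told apart from those of Xist, which was likewise lowest in NOD week 4. Atp2b4 (1.27) and A630001G21Rik (1.28) came next.

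Most of the nearest chromosomal neighbours did not differ 2-fold between the NOD ages, and of the 2 that did, the pseudogene Gm7428 lies within Cpa3. By gene order in the RefSeq table of GRCm38.p6, the 2 nearest listed genes on each side made 24 neighbours, of which 15 passed the filter between the NOD ages, 2 were 2-fold higher and 0 lower. The 2 are 13.3% of those that passed, beside 0.716% of all genes compared. Their log2 ratios ran from -0.24 to 1.42 with a median of -0.11. The higher ones were Gm770 (Drc7), a cilia gene beside Gpr97, at 4.53 RPKM in NOD week 6.5, 1.07 in NOD week 4, 0.78 in B6 week 7 and 1.70 in B6 week 4, and LOC664965 (Gm7428), a pseudogene lying within Cpa3. The pseudogene had 38 reads in NOD week 6.5 and 5 in NOD week 4. Up to 28% of its reads in any library were shared with other places. Its reads cannot be separated from those of Cpa3 on either strand, so its call is not separate from the selection of Cpa3.

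The window was widened to 6 genes on each side after these values had been seen, giving 72 neighbours, 45 passing, 4 higher (8.89%) and 0 lower. The 4 include Gm7428, whose call is not separate from the selection of Cpa3. Around Gpr97 the kinesin gene Kifc3, 3 places away, had 8.49 RPKM in NOD week 6.5 and 2.31 in NOD week 4, a ratio of 3.68 (3.05 to 4.48), and 2.03 in B6 week 7 and 3.37 in B6 week 4. Around Sprn the scavenger receptor gene E430002D04Rik (Cd163l1), 3 places away, had 68.2 RPKM in NOD week 6.5 and 12.02 in NOD week 4, a ratio of 5.68 (5.25 to 6.14), and 7.11 in B6 week 7 and 6.71 in B6 week 4. Around Cldn2, Mdga1 and Pdgfrb 0 neighbours were 2-fold higher, and Csf1r, the receptor gene next to Pdgfrb and a marker of macrophages, was at 0.05 RPKM in NOD week 6.5 and 0.13 in NOD week 4.

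**Figure D5:**
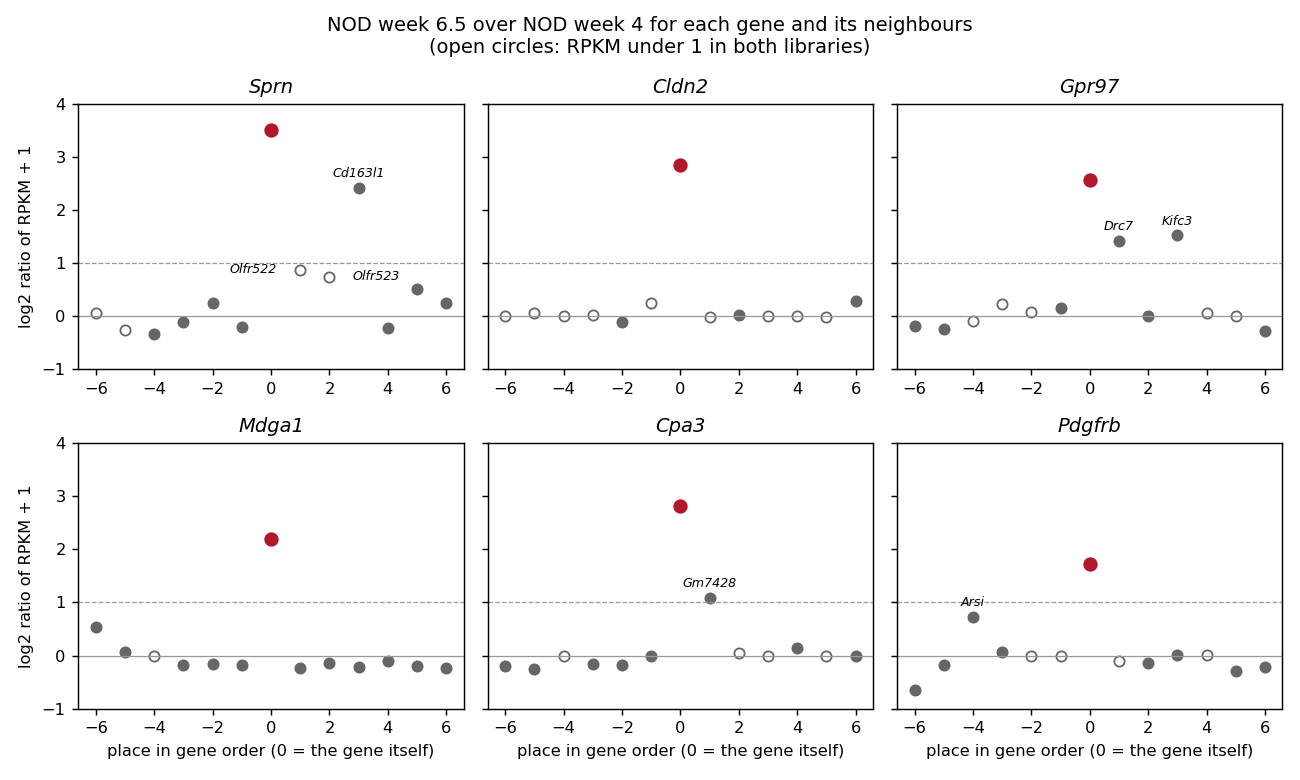
Log2 ratio of RPKM + 1, NOD week 6.5 over NOD week 4, for each of the 6 genes (red, place 0) and the 6 listed genes on each side in gene order. Open circles have RPKM under 1 in both libraries and the dashed line marks a 2-fold change, which 4 neighbours pass: Cd163l1 near Sprn, Drc7 and Kifc3 near Gpr97, and Gm7428 within Cpa3.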

How the data were processed

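RNA was measured in 4 libraries, 1 per strain and age. The submitters' processing notes name Bowtie 0.12.1 as aligner and mm9 as build; file names give reads of 32 bases. The deposited files hold, per the file headers, each gene's length in kilobases, an RPKM value and the fraction of its reads that map to several places. The authors used a counting program and annotation not given in the sources used here. Rows without a gene name (105 to 168 per file, 0.28% to 0.528% of the listed reads) were left out.

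The files hold no counts. Depth was recovered from the RPKM steps of genes of at most 0.6 kilobases (RPKM times length under 0.5). The depth was chosen so that these values came near to whole reads, and 97.9% to 100% did, to within 0.1 reads. Chance gives 20% for a depth set without those values, so the 20% does not test the fitted depth. Depth recovery and the counts of 2-fold changes were checked on simulated data, and the intervals were not. Reads behind a gene are RPKM times length times depth, rounded to whole reads, with 95% Poisson intervals. Only 5 values of the 6 genes were whole reads to within 0.1 reads before rounding, so their read numbers are estimates. Ratios of libraries have 95% Clopper-Pearson intervals. Counts of 2-fold changes used log2(RPKM + 1), which understates the change of low genes, over genes reaching an RPKM of 1 in either library. No count model and no test was run, since there was 1 library per group.

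Symbols and gene order came from a RefSeq table of GRCm38.p6, a later build than mm9, from which no gene coordinates are printed; promoter sequences carry their own GRCm38.p6 coordinates. Of 361 entries in 20 gene lists, 353 were matched. Named genes were the 6 genes, the 3 nearest to each in profile (under 10% shared reads), the 12 genes in which NOD week 6.5 most exceeded the other libraries, 2 neighbours on each side, and list members with the largest changes or defining roles. The genes and lists were chosen with earlier results of these data known. Alternatives covered the pseudocount (0.1 and 0.5), TMM and upper quartile rescaling, depth as reads in listed rows, removal of shared reads, an RPKM filter of 5 or none, a 4-fold threshold and genes under 10% shared reads. Python 3.11.15, pandas 2.3.3, numpy 2.4.6 and scipy 1.17.1 were used.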

Additional observations from a re-analysis of the deposited data

Results flagged for a closer look

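The age changes of the strains ran in opposite directions for 5 of the 6 genes, with the NOD libraries higher and the B6 libraries lower at the older age on log2(RPKM + 1). The difference, NOD minus B6, was 3.201 for Gpr97, 3.012 for Cldn2, 2.854 for Cpa3, 2.613 for Mdga1 and 2.502 for Pdgfrb. The difference was not tested, since each strain and age had 1 library. The direction in NOD is fixed by the way the genes were selected, and the B6 change of Cldn2 and Cpa3 was within counting error. Lower values were common between the B6 ages, where the median log2 ratio of all genes compared was -0.30. Among the genes that passed the filter in B6, Cpa3 at -0.04 lay above that median, and Gpr97 and Pdgfrb lay below it. Cldn2, at -0.17, and Mdga1 were under an RPKM of 1 in both B6 libraries and are not among the genes that give the median. The added 1 draws their ratios toward no change, so they are not placed against it. Under TMM rescaling the median was 0.01. For Cpa3 the B6 ratio of week 7 to week 4 passed to the other side of 1 under TMM rescaling, at 1.27.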

How the results depend on the processing

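No paired analysis was possible because each strain and age had 1 library. No member ratio between the NOD ages, and none of the 24 member ratios on removal of shared reads, moved beyond counting error. TMM and upper quartile rescaling moved 6 of the 24 ratios each, and depth as reads in listed rows moved 4, all of them involving B6 week 7. For B6 week 7 over B6 week 4 the ratio became 0.727 and 0.74 for Gpr97 under TMM and upper quartile, and, with listed reads as the last value, 1.27, 1.29 and 1.24 for Cpa3 and 0.722, 0.734 and 0.705 for Pdgfrb. For NOD week 6.5 over B6 week 7 it became 7.99 and 7.96 for Gpr97, 1.90, 1.89 and 1.98 for Cpa3 and 0.659, 0.657 and 0.687 for Pdgfrb.

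On the log2 scale a pseudocount of 0.1 moved 14 of the 24 member values and one of 0.5 moved 5. The differences between age changes, NOD minus B6, ran from 3.047 (Cpa3) to 4.864 (Sprn) with 0.1 and from 2.803 (Pdgfrb) to 4.062 (Sprn) with 0.5. With a pseudocount of 0.1, higher and lower counts were 189 and 91 (NOD week 6.5 against NOD week 4), 95 and 782 (B6 week 7 against B6 week 4), 1233 and 393 (NOD week 6.5 against B6 week 7) and 550 and 455 (NOD week 4 against B6 week 4). A pseudocount of 0.5 gave 42 lower between NOD ages and 52 higher between B6 ages. Between B6 ages TMM gave 106 and 77 and upper quartile 112 and 70, and for NOD week 6.5 against B6 week 7 they gave 444 and 344, and 443 and 346. A 4-fold threshold gave 21 and 2, 0 and 5, 127 and 46, and 86 and 55 in the 4 comparisons. An RPKM filter of 5 gave 59 higher between NOD ages, 12 higher between B6 ages, 139 lower for NOD week 6.5 against B6 week 7, and 198 and 181 for NOD week 4 against B6 week 4. Genes under 10% shared reads gave 9 lower between NOD ages, 10 and 246 between B6 ages, 445 and 99 for NOD week 6.5 against B6 week 7, and 150 and 144 for NOD week 4 against B6 week 4. The cause of these moves was not tested, beyond the smaller number of genes that the stricter settings allow. Depth limits Sprn outside NOD week 6.5, where 1 to 8 reads stand behind each value.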

Other observations

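Between Sprn and Cd163l1 lie olfactory receptor genes, which serve smell in the nose. Olfr522 had 19 reads in NOD week 6.5 and 0 in each of the other libraries. Olfr523 had 18 reads in NOD week 6.5, 1 in NOD week 4, 2 in B6 week 7 and 2 in B6 week 4, a NOD age ratio of 13.0 (2.04 to 537). Olfr524, beyond Cd163l1, had 81 reads in NOD week 6.5, 70 in NOD week 4, 51 in B6 week 7 and 28 in B6 week 4, with a NOD age ratio of 0.828 (0.595 to 1.16). Of 1086 olfactory receptor genes listed, 5 reached an RPKM of 0.5 in NOD week 6.5, 3 in NOD week 4, 4 in B6 week 7 and 3 in B6 week 4. These genes were singled out after their values had been seen.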
